A study of Oryza sativa with 12 samples.

Results

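The 10 genes described here serve the chelation, uptake and storage of iron in rice. They are nicotianamine synthases 1 to 3 (NAS1, NAS2 and NAS3), nicotianamine aminotransferase 1 (NAAT1), deoxymugineic acid synthase 1 (DMAS1), the transporters YSL15, YSL2 and IRT1, the bHLH regulator IRO2 and vacuolar iron transporter 1.2 (VIT1.2). They were chosen by gene identifier and make up 10 of the 57501 gene models counted. Polyadenylated RNA was sequenced from 21-day-old plants grown in hydroponics, in 12 libraries. The 4 groups of 3 libraries each were OX6 roots, WT roots, OX6 shoots and WT shoots. OX6 is a rice line that overexpresses Zaxinone Synthase (ZAS), a carotenoid cleavage dioxygenase, and WT is the Nipponbare wild type (NB in the sample titles). OX6 is a single line, so ZAS and any further difference of this plant stock from WT cannot be told apart, and the promoter that drives the transgene is not given in the sources used here. The iron supply of the nutrient solution is not given either, and the letter P in the sample titles is not explained by the labels.

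Rice takes up iron by a pair of routes. Like other grasses it secretes mugineic acid family phytosiderophores, which bind ferric iron in the root zone, and it takes the complex back in. It also imports ferrous iron directly. Nicotianamine, made from S-adenosylmethionine, is both the precursor of the phytosiderophores and a metal chelator that moves iron within the plant, and excess iron is kept in vacuoles and in ferritin.

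Chelator synthesis runs from NAS to NAAT to DMAS. NAS1 (LOC_Os03g19427, chromosome 3, 10929483 to 10930895, minus strand) and NAS2 (LOC_Os03g19420, chromosome 3, 10926469 to 10927950, plus strand) lie 1532 bases apart and point towards each other. They are close paralogs, and counting may have assigned reads of one to the other. NAS3 (LOC_Os07g48980) lies on chromosome 7, 29323094 to 29324723. NAAT1 (LOC_Os02g20360, chromosome 2, 11997094 to 12002633), which moves the amino group off nicotianamine, carries in the file the name of barley nicotianamine aminotransferase A. DMAS1 (LOC_Os03g13390, chromosome 3, 7228964 to 7231749), which reduces the product to deoxymugineic acid, is named there a probable NAD(P)H-dependent oxidoreductase. The names NAAT1, DMAS1 and IRO2 are therefore background knowledge for these models. Coordinates are those of the deposited file, whose genome build is not given in the sources used here.

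Transport and control involve 5 further genes. YSL15 (LOC_Os02g43410, chromosome 2, 26200013 to 26204720) imports the iron and deoxymugineic acid complex into roots. YSL2 (LOC_Os02g43370, chromosome 2, 26170387 to 26174970) carries metal and nicotianamine complexes within the plant. IRT1 (LOC_Os03g46470, chromosome 3, 26286156 to 26292023) imports ferrous iron. IRO2 (LOC_Os01g72370, chromosome 1, 41971444 to 41978408) is a bHLH factor that promotes the phytosiderophore genes under iron deficiency, and the file names it after Arabidopsis bHLH38. VIT1.2 (LOC_Os09g23300, chromosome 9, 13831868 to 13833654) moves iron into the vacuole. The counting of 2 of these models may be affected by an opposite-strand neighbour, because the strand setting of the counting is not given. The IRT1 model shares 1022 bases with LOC_Os03g46460, which the file also names Fe(2+) transport protein 1, and the IRO2 model holds the whole of LOC_Os01g72360 (1039 bases), which had no count in any library. The other 8 overlap no model.

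Total gene counts ranged from 32269044 to 62910092 per library. ZAS, here LOC_Os09g15240 (a carotenoid 9,10-cleavage dioxygenase by its name in the file), had 12637 to 14246 counts in OX6 roots, against 109 to 124 in WT roots, and 51763 to 64950 in OX6 shoots, against 5 to 26 in WT shoots, so each library was on the side of its genotype label. Markers of the other organ were low. Summed CPM (counts normalised to TMM-adjusted library sizes) of 26 chlorophyll-binding and Rubisco small subunit models was 55.2 to 81.3 in OX6 roots and 76.7 to 110 in WT roots, against 128000 to 134000 in OX6 shoots and 153000 to 170000 in WT shoots. Of these models, 5 were at 0 in all OX6 root libraries and 3 in all WT root libraries. For 7 root models (the silicon channel NIP2-1 and Casparian strip membrane proteins) it was 2640 to 3360 in OX6 roots, 2910 to 3460 in WT roots, 14.8 to 16.9 in OX6 shoots and 16.9 to 24.1 in WT shoots. Nothing in the labels states that replicates came from different plants. The p-values therefore measure spread among libraries that may be technical repeats. In whole organs, a lower level per cell and fewer expressing cells cannot be told apart.

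The genes fell into root genes, shoot genes and genes of both organs. NAS1, NAS2 and YSL15 were nearly confined to roots in these libraries, NAAT1 was a shoot gene, and NAS3, DMAS1 and VIT1.2 were abundant in both organs. NAS1 summed to 1211 counts in the OX6 root libraries and 8 in the OX6 shoot libraries, a ratio per scaled library of 111 (95% exact counting interval 56.3 to 259). In WT it summed to 1218 counts in roots and 13 in shoots, a ratio of 82.7 (48.2 to 156). For NAS2 the ratio of root to shoot was 39.1 in OX6 (27.3 to 58.2) and 69.4 in WT (44.8 to 114). YSL15 summed to 1350 counts in OX6 roots and 3 in OX6 shoots, a ratio of 331 (113 to 1610), and to 990 counts in WT roots and 19 in WT shoots, a ratio of 46 (29.3 to 76.8). IRO2 had 182 counts in OX6 roots and 3 in OX6 shoots (ratio 44.6, 15 to 218) and 254 counts in WT roots and 137 in WT shoots (ratio 1.64, 1.32 to 2.03). These intervals cover counting error only. Single shoot libraries moved several of these ratios by over 1.5 times, since library 3 held 7 of the 8 NAS1 counts of OX6 shoots and 11 of the 13 of WT shoots. The fitted log2 fold change of NAS1, 6.75 in OX6 and 6.3 in WT, was 6.13, 6.44 and 8.96 without OX6 shoot libraries 1, 2 and 3, and 5.95, 5.55 and 8.39 without WT shoot libraries 1, 2 and 3. In OX6 that of YSL15, 8.24, was 7.64 without shoot library 1 and 9.18 without shoot library 2, and that of IRO2, 5.34, was 4.75 without shoot library 1 and 8.8 without shoot library 3. All these values were called. In a fit of all 12 libraries, the edgeR adjusted p of root against shoot was 3.94e-07 in OX6 and 3.83e-07 in WT for NAS1, and 6.01e-10 in OX6 and 1.99e-10 in WT for NAS2. It was 6.41e-11 in OX6 and 5.52e-10 in WT for YSL15, and 0.00238 in OX6 and 0.646 in WT for IRO2, whose test of the difference between genotypes is given further on.

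NAAT1 ran the other way along the same pathway. Its CPM was 5.92, 6.75 and 4.52 in OX6 roots, against 381, 181 and 294 in OX6 shoots. In WT it was 5.21, 6.11 and 5.36 in roots, against 342, 366 and 379 in shoots. The root level was therefore 49.8-fold below the shoot level in OX6 (log2 fold change −5.64, SE 0.249, adjusted p = 3e-11) and 65.1-fold below it in WT (−6.02, SE 0.253, adjusted p = 1.66e-11). Other models share the file name of NAAT1, and not all were higher in shoots. LOC_Os02g19970 had mean CPM of 48.6 in OX6 roots and 25.4 in OX6 shoots, and 44.8 in WT roots and 18.6 in WT shoots. Of 5 other tested models named for nicotianamine or mugineic acid enzymes, 4 were higher and 1 lower in roots than in shoots of each genotype. DMAS1, the next enzyme of the pathway, was at similar levels in both organs. Its means were 31.6 ± 5.97 CPM in OX6 roots, 28.8 ± 3.67 in OX6 shoots, 28.8 ± 5.03 in WT roots and 31.9 ± 2.35 in WT shoots (SD, n = 3 each). The difference of root from shoot was 0.13 on the log2 scale in OX6 (SE 0.143, adjusted p = 0.413) and −0.15 in WT (SE 0.142, adjusted p = 0.356).

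Of all 10 genes, 5 were higher and 3 lower in roots than in shoots of OX6, and 4 were higher and 2 lower in WT (edgeR, adjusted p under 0.05). Organ differences were common in the whole table. In OX6, calls reached 73.8% of 29042 genes (37.3% higher in roots, 36.5% lower), and in WT they reached 73% (37.6% higher, 35.4% lower), so counts of 8 and 6 of 10 are near the background. The transporter YSL2 was the other shoot gene, at 0.175, 0.359 and 0.111 CPM in OX6 roots against 0.487, 0.809 and 1.28 CPM in OX6 shoots. WT had 0.142, 0.257 and 0.21 CPM in roots against 1.05, 0.79 and 0.862 CPM in shoots. No root library reached a shoot library in either genotype (adjusted p = 0.00366 in OX6 and 0.00216 in WT), although these values rest on 5 to 42 counts per library. IRT1 was low throughout, with 14 to 30 counts in OX6 root libraries, 20 to 40 in OX6 shoots, 16 to 28 in WT roots and 15 to 47 in WT shoots, and its organ difference was not called (adjusted p = 0.056 in OX6 and 0.22 in WT), although 5 of 19 alternatives called it in OX6.

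**Figure D1:**
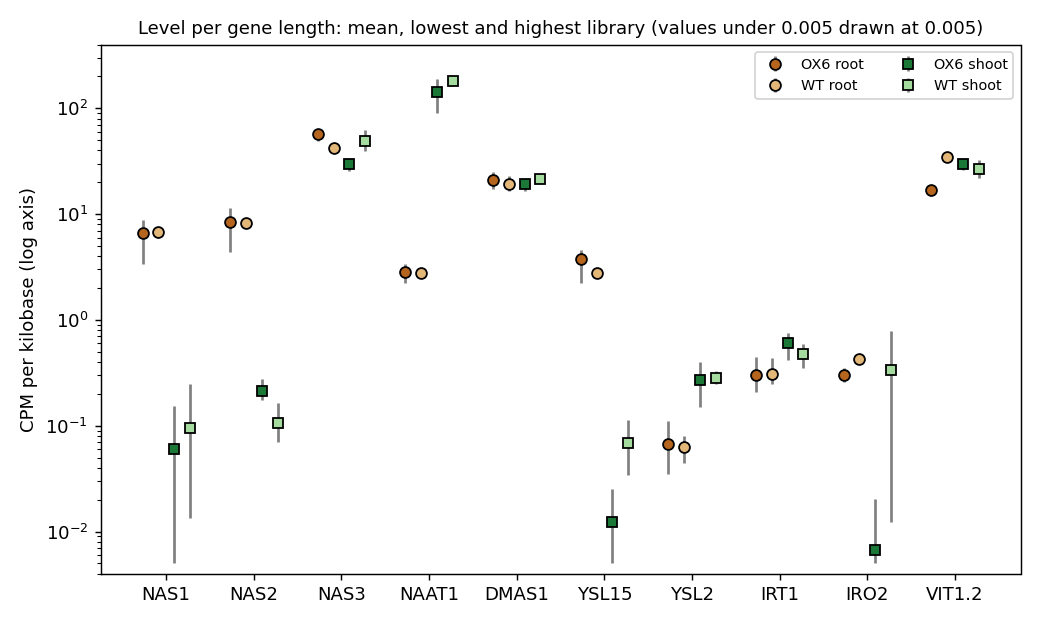
Level of each gene as CPM per kilobase of gene length on a log axis, with the mean (symbol) and the lowest and highest of 3 libraries (line) for OX6 root, WT root, OX6 shoot and WT shoot. NAAT1 stands at 2.86 in OX6 roots and 2.77 in WT roots, against 142 in OX6 shoots and 181 in WT shoots, while NAS1, NAS2 and YSL15 drop below 0.3 in shoots.

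Levels of different genes were compared per kilobase of the gene length in the file. In roots the order of mean CPM per kilobase differed between the genotypes in the places of DMAS1 and VIT1.2. OX6 roots had NAS3 (57.4), DMAS1 (21.2), VIT1.2 (16.8), NAS2 (8.36), NAS1 (6.67), YSL15 (3.79), NAAT1 (2.86), IRO2 (0.303), IRT1 (0.3) and YSL2 (0.0671). WT roots had NAS3 (42.6), VIT1.2 (34.8), DMAS1 (19.3), NAS2 (8.28), NAS1 (6.73), YSL15 (2.79), NAAT1 (2.77), IRO2 (0.428), IRT1 (0.311) and YSL2 (0.0633). Neighbours whose library ranges overlapped were DMAS1 and VIT1.2, NAS2 and NAS1, and NAS1 and YSL15 in OX6 roots, and YSL15 and NAAT1, and IRO2 and IRT1, in roots of both genotypes. In shoots NAAT1 stood first, at 142 in OX6 and 181 in WT. It was followed in OX6 shoots by VIT1.2 (30.0) and NAS3 (29.7), whose ranges overlapped, and DMAS1 (19.3), and in WT shoots by NAS3 (49.6), VIT1.2 (26.6) and DMAS1 (21.4), of which the last pair overlapped. The other 6 genes were under 1 CPM per kilobase in shoots of both genotypes. The IRT1 neighbour LOC_Os03g46460, which carries the same name in the file, had 1.79 to 1.86 CPM per kilobase in OX6 roots and 1.73 to 1.94 in WT roots. The IRT1 model itself had 0.208 to 0.443 CPM per kilobase in OX6 roots and 0.247 to 0.434 in WT roots.

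The first genotype comparison was that of OX6 roots with WT roots. NAS3 rose and VIT1.2 fell, and the other 7 tested genes were not called. These 2 of 9 tested genes stand beside 2.83% of 26574 genes called in roots (1.19% higher, 1.64% lower). The genes were chosen with earlier results of these data known, so the comparison of these shares cannot show an excess. The median log2 fold change of the 9 was 0.0126, against 0.00242 over all genes. YSL2 did not pass the filter on low counts in roots, where it had 7, 16 and 5 counts in OX6 and 6, 11 and 9 in WT.

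NAS3 had 104, 80.0 and 96.4 CPM in OX6 roots, against 68.2, 70.4 and 69.9 CPM in WT roots. All OX6 root libraries lay above all WT root libraries, and the WT libraries lay close together. The rise was 1.35-fold (log2 fold change 0.43, SE 0.0813, adjusted p = 0.00772). It was not called when all 12 libraries shared 1 estimate of spread (log2 fold change 0.43, SE 0.142, adjusted p = 0.269). VIT1.2 had 18.5, 20.8 and 22.6 CPM in OX6 roots, against 39.0, 44.8 and 44.5 CPM in WT roots, so that every OX6 root library was below every WT root library by a wide margin. The fall was 2.07-fold (log2 fold change −1.05, SE 0.0876, adjusted p = 2.11e-06), and VIT1.2 was called under every alternative run, with adjusted p up to 0.000187.

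**Figure D2:**
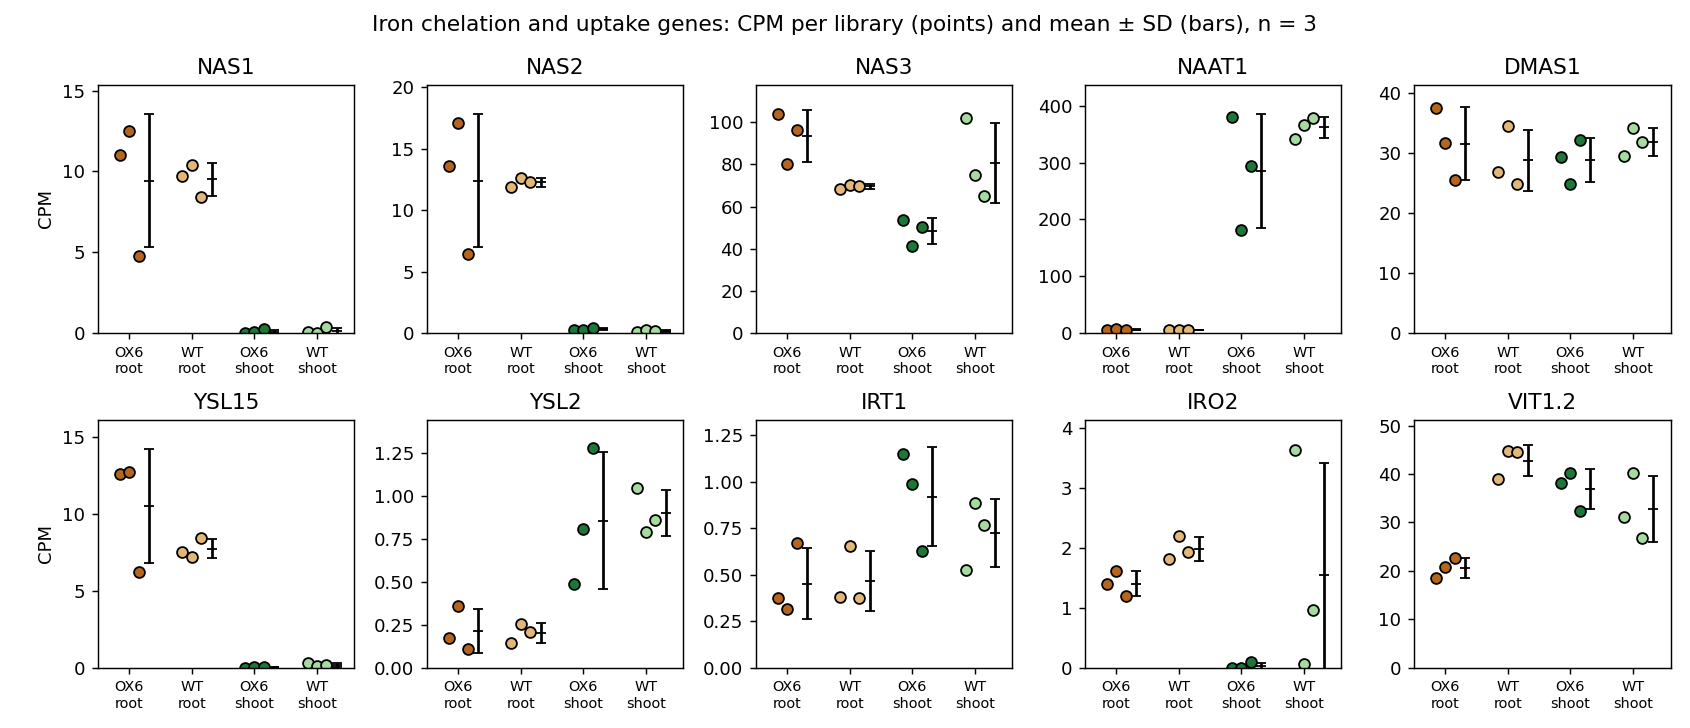
CPM of the 10 genes in every library (points) with the mean and SD (bars, cut at 0) for OX6 root, WT root, OX6 shoot and WT shoot, n = 3 each; every panel has its own linear axis from 0. NAS3 points of OX6 lie above WT in roots and below WT in shoots, and VIT1.2 points of OX6 lie below WT in roots and overlap WT in shoots.

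For NAS1 and NAS2, which were not called in roots, the OX6 libraries were more spread than the WT libraries. NAS1 had 11, 12.5 and 4.74 CPM in OX6 roots, against 9.72, 10.4 and 8.41 CPM in WT roots (log2 fold change −0.016, SE 0.381, adjusted p = 0.993). NAS2 had 13.6, 17.1 and 6.46 CPM in OX6 roots, against 11.9, 12.6 and 12.3 CPM in WT roots (0.013, SE 0.369, adjusted p = 0.995). With the counts of this pair summed into 1 gene, the log2 fold change was 0.00063 (SE 0.39, adjusted p = 0.999). The SD of NAS1 was 4.13 CPM in OX6 roots and 1.02 CPM in WT roots, and that of NAS2 was 5.41 CPM in OX6 roots and 0.385 CPM in WT roots, so a change of moderate size in these genes was not detectable at this spread. NAAT1 (0.045, SE 0.15, adjusted p = 0.945) and DMAS1 (0.13, SE 0.163, adjusted p = 0.813) were not called either.

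OX6 root library 3 was the lowest of its group for these genes. Relative to the mean of the other OX6 root libraries it held 0.403 of the NAS1 level, 0.421 of NAS2, 0.493 of YSL15, 0.713 of NAAT1 and 0.738 of DMAS1. The same ratio was 1.05 for NAS3 and 1.15 for VIT1.2, and the median log2 ratio over all genes tested in roots was −0.0158 (quartiles −0.153 and 0.12, with 0.1 CPM added). ZAS itself stood at 1.02 in this library, whose total of 37910143 counts was close to those of the other root libraries (35211101 to 37583749). Whether a technical difference of this library moved with these values was not tested. The phytosiderophore uptake gene YSL15 had 12.6, 12.7 and 6.23 CPM in OX6 roots, against 7.55, 7.23 and 8.41 CPM in WT roots. OX6 root libraries 1 and 2 were above all WT root libraries and library 3 was below them. YSL15 was not called (log2 fold change 0.44, SE 0.268, adjusted p = 0.57). Without OX6 root library 3, the library below WT, its log2 fold change was 0.71 (SE 0.112, adjusted p = 0.00197). This was the 1 alternative that called it, and 14 did not. With 1 library left out, its log2 fold change ranged from 0.27 to 0.71, with edgeR adjusted p up to 0.798.

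**Figure D3:**
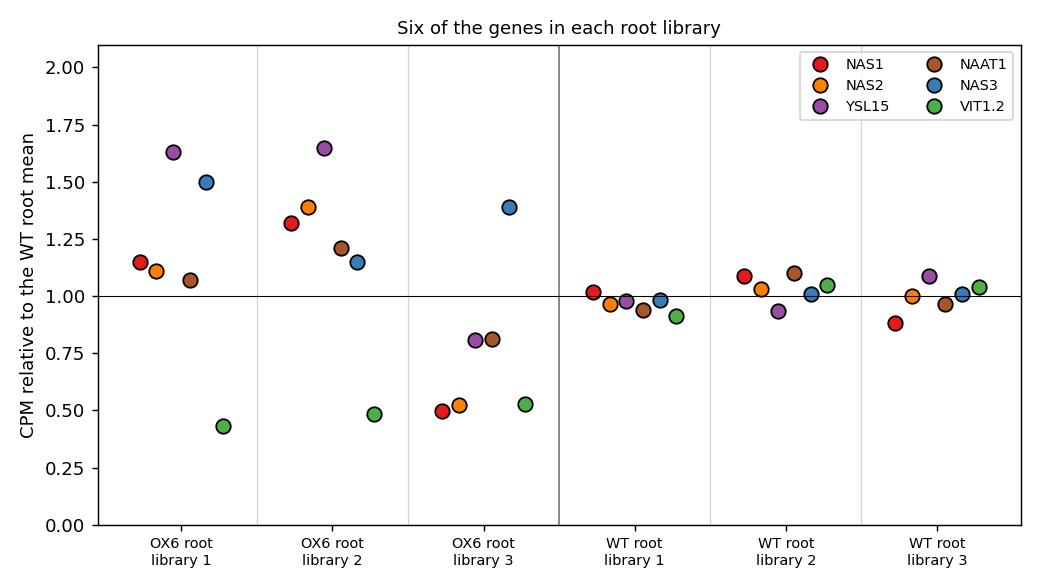
CPM of 6 of the genes in each root library, divided by the mean of the WT root libraries, with OX6 libraries on the left. In OX6 root library 3, NAS1, NAS2, YSL15 and NAAT1 all stand at 0.498 to 0.813, below their place in the other OX6 root libraries, while NAS3 (1.39) and VIT1.2 (0.529) do not drop with them.

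The deviations of NAS1 from the mean of its genotype went with those of NAS2 (Pearson r = 0.976), NAAT1 (0.936), YSL15 (0.918) and IRO2 (0.812) over the 6 root libraries, given as a description. These libraries share the same scaling, and OX6 root library 3 is the lowest of its group for each of these genes. DMAS1 had r = 0.733 and YSL2 r = 0.754 with NAS1, while NAS3 (−0.338), VIT1.2 (−0.586) and IRT1 (−0.656) had negative values. The regulator IRO2 had 1.4, 1.62 and 1.2 CPM in OX6 roots, against 1.82, 2.2 and 1.93 CPM in WT roots. Every OX6 root library was below every WT root library, but the difference was not called (log2 fold change −0.49, SE 0.219, unadjusted p = 0.039, adjusted p = 0.327). IRT1 had 0.375, 0.314 and 0.668 CPM in OX6 roots, against 0.378, 0.655 and 0.373 CPM in WT roots (−0.043, SE 0.44, adjusted p = 0.984), and the groups overlapped.

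In shoots, NAS3 was lower in OX6, the opposite of roots. It had 53.5, 41.3 and 50.4 CPM in OX6 shoots, against 102, 75.1 and 65.1 CPM in WT shoots, with no overlap. The fall was 1.67-fold (log2 fold change −0.74, SE 0.151, adjusted p = 0.00773), with an adjusted p of just over 0.05 (0.05, log2 fold change −0.64) without OX6 shoot library 2. It was the only call among 6 tested genes, beside 5.64% of 26251 genes called in shoots (3.18% higher, 2.46% lower). The median log2 fold change of the 6 was −0.107, against −0.00566 over all genes. The summed photosynthesis markers above were also lower in OX6 shoots than in WT shoots with no overlap, and their part in the result was not tested. VIT1.2 had 38.1, 40.3 and 32.4 CPM in OX6 shoots, against 31.2, 40.3 and 26.8 CPM in WT shoots, which overlapped (0.17, SE 0.14, adjusted p = 0.585).

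The other tested genes of shoots were not called. For NAAT1 the log2 fold change was −0.34 (SE 0.231, adjusted p = 0.503), and the OX6 shoot libraries, at 181 to 381 CPM, spanned the whole range of the WT shoot libraries, at 342 to 379 CPM. DMAS1 had 29.3, 24.9 and 32.2 CPM in OX6 shoots, against 29.5, 34.2 and 31.8 CPM in WT shoots (−0.15, SE 0.121, adjusted p = 0.568). IRT1 (0.33, SE 0.501, adjusted p = 0.801) and YSL2 (−0.065, SE 0.506, adjusted p = 0.969) were measured with such wide errors that a change of moderate size was not detectable.

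**Figure D4:**
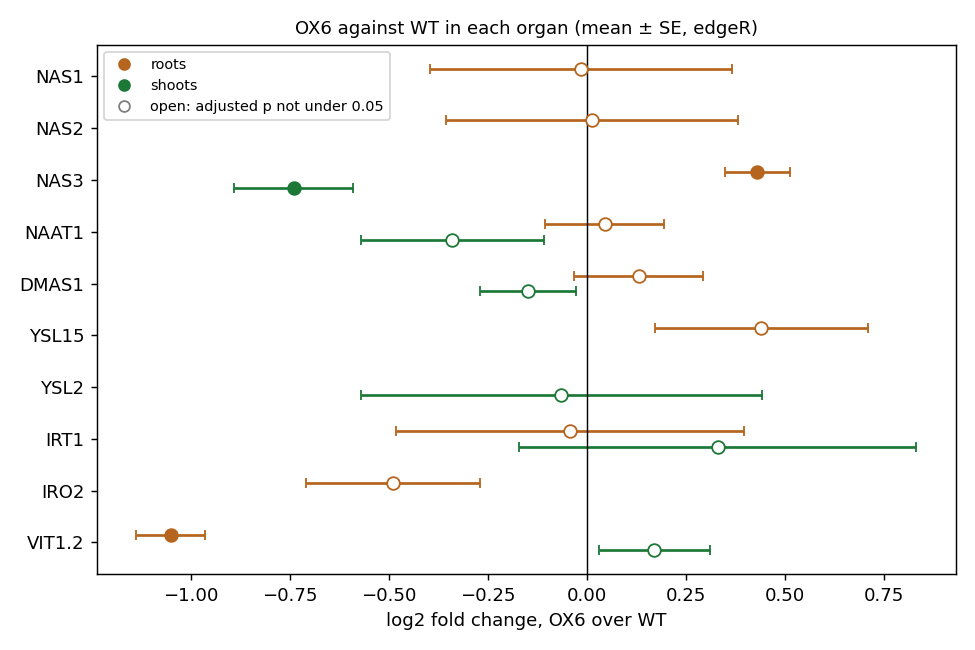
Log2 fold change of OX6 over WT in roots and in shoots (points) with the standard error (bars) from edgeR; filled points have an adjusted p under 0.05, and genes under the filter on low counts have no point. NAS3 is filled on opposite sides of 0 in roots (0.43) and shoots (−0.74), and VIT1.2 is filled in roots (−1.05) only.

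NAS1, NAS2, YSL15 and IRO2 did not pass the filter on low counts in shoots. NAS1 had 0, 1 and 7 counts in OX6 shoots and 1, 1 and 11 in WT shoots. NAS2 had 9, 8 and 13 counts in OX6 shoots and 3, 13 and 4 in WT shoots, and YSL15 had 0, 2 and 1 counts in OX6 shoots and 9, 5 and 5 in WT shoots. For YSL15 the level in OX6 shoots was 0.187 of that in WT shoots by summed counts (95% exact counting interval 0.0355 to 0.636), and all OX6 shoot libraries were below all WT shoot libraries. Where the gene was tested in shoots it was not called, with an adjusted p of 0.545 with no filter on low counts and 0.138 in 1 fit of all 12 libraries.

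IRO2 was uneven among the WT shoot libraries. It had 0, 0 and 3 counts in OX6 shoots, against 104, 3 and 30 counts in WT shoots, so WT shoot library 2, the most deeply sequenced of all, was level with OX6 shoot library 3 in counts. In CPM that WT library (0.0565) was below OX6 shoot library 3 (0.0939), so the groups overlapped. The summed level in OX6 shoots was 0.026 of that in WT shoots (95% exact counting interval 0.00529 to 0.0776), an interval that leaves out the spread between the WT libraries. The gene was tested in shoots only under some alternatives. Its adjusted p was 4.94e-08 with no filter on low counts, 0.0239 in 1 fit of all 12 libraries, 0.00164 without WT shoot library 2, and 0.293, 0.239 and 0.236 without OX6 shoot libraries 1, 2 and 3.

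The difference between the organs was tested itself, as the log2 fold change of OX6 over WT in roots minus that in shoots. Of the 10 genes, NAS3 and VIT1.2 were called, 1 in each direction, beside 1.97% of 29042 genes (0.692% higher, 1.28% lower). Here too the choice of genes with earlier results known means that the shares cannot show an excess. For NAS3 the difference was 1.17 (SE 0.202, adjusted p = 0.00383), and adjusted p over the alternatives ranged from 9.33e-06 to 0.0141. For VIT1.2 it was −1.22 (SE 0.187, adjusted p = 0.00127), with a range of 2.38e-06 to 0.0105. YSL15 (2.77, SE 0.953, adjusted p = 0.18) and IRO2 (4.93, SE 1.62, adjusted p = 0.176) were not called, and these fitted values rest on 3 counts each in OX6 shoots. IRO2 had an adjusted p of 0.00369 without WT shoot library 2. The remaining 6 genes had adjusted p-values of 0.622 to 0.992.

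The same libraries can be read as organ differences within each genotype. In OX6 NAS3 was 1.93-fold higher in roots than in shoots (log2 fold change 0.95, SE 0.144, adjusted p = 1.4e-05), while in WT root and shoot libraries overlapped (−0.22, SE 0.142, adjusted p = 0.177; −0.37, adjusted p = 0.015, without WT shoot library 3). VIT1.2 was 1.79-fold lower in roots than in shoots of OX6 (−0.84, SE 0.134, adjusted p = 2.05e-05). In WT it was 1.3-fold higher in roots than in shoots (0.38, SE 0.131, adjusted p = 0.0151), although its root and shoot libraries overlapped and the adjusted p was 0.09 without WT shoot library 1 and 0.141 without WT shoot library 3. These comparisons use the same libraries as the comparisons of genotypes and are no separate evidence.

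**Figure D5:**
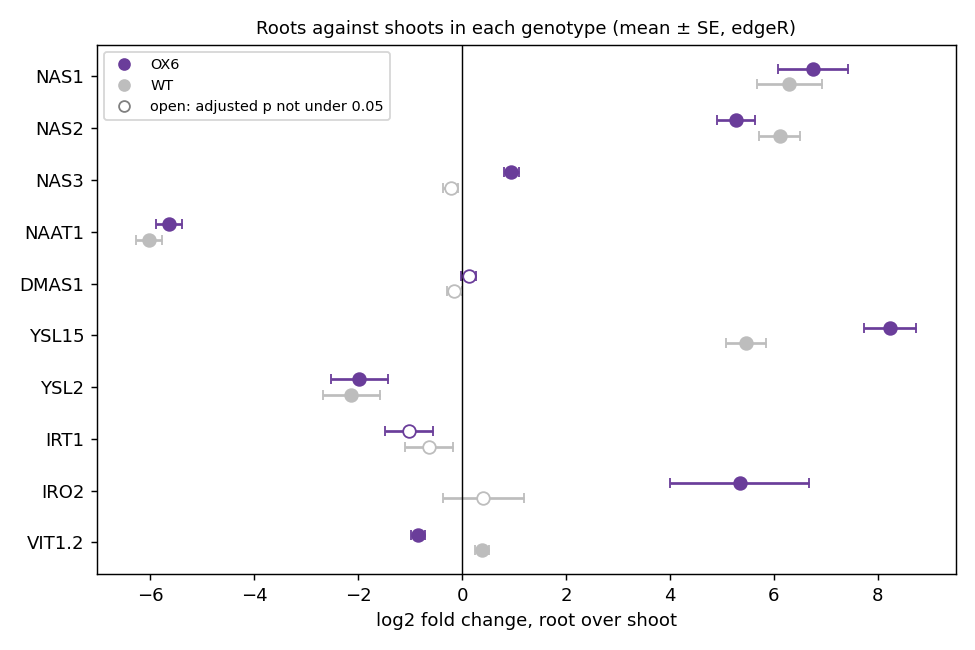
Log2 fold change of roots over shoots in OX6 and in WT (points) with the standard error (bars) from edgeR in a fit of all 12 libraries; filled points have an adjusted p under 0.05. NAS3 (0.95 in OX6, −0.22 in WT) and VIT1.2 (−0.84 in OX6, 0.38 in WT) lie on opposite sides of 0 in the genotypes; the OX6 points of YSL15 and IRO2 rest on 3 shoot counts each and their size depends on the fit.

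Other genes of iron handling were taken from 7 lists matched to the protein names in the file, 69 models in all. Of 59 models tested in roots, 2 fell and 0 rose, and of 54 tested in shoots, 2 rose and 1 fell, near the background given above. Both falls of roots were in the methionine list, which holds the enzymes that make S-adenosylmethionine and recycle the by-product of nicotianamine synthesis (18 of 20 models tested, median log2 fold change −0.088, against 0.00242 over all genes). A dioxygenase of methionine salvage (1,2-dihydroxy-3-keto-5-methylthiopentene dioxygenase 4, LOC_Os10g28360) had 1.9, 1.84 and 1.94 CPM in OX6 roots, against 4.62, 4.12 and 3.77 CPM in WT roots, a 2.2-fold fall (adjusted p = 0.0008). The difference of its change between organs was called (−1.02, SE 0.193, adjusted p = 0.0071), but not with limma-voom (adjusted p = 0.135). A methylthioadenosine nucleosidase gene (LOC_Os01g12940), whose enzyme breaks down that by-product, fell 1.37-fold in roots (11.6, 13.6 and 12.4 CPM in OX6, against 18.2, 14.4 and 18.9 CPM in WT; adjusted p = 0.0333). This call was lost with limma-voom (adjusted p = 0.0575), in 1 fit of all 12 libraries (0.779) and without WT root library 1, WT root library 3, OX6 root library 1 or OX6 root library 3 (0.0808 to 0.201).

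In shoots none of 16 tested methionine genes was called, and their most abundant member per length, S-adenosylmethionine synthase 1 (LOC_Os05g04510), had 662, 617 and 601 CPM in OX6 against 754, 748 and 693 CPM in WT. Methylthioribose-1-phosphate isomerase (LOC_Os11g11050), a salvage enzyme, was called for the difference between organs (0.51, SE 0.108, adjusted p = 0.0163), with 22.5, 24.2 and 23.2 CPM in OX6 roots, against 20.5, 19.5 and 19.7 CPM in WT roots. Its levels were 81.3, 74.3 and 79.7 CPM in OX6 shoots and 95.5, 98.3 and 92.9 CPM in WT shoots. The call was lost without WT root library 2 or 3, OX6 root library 2 or OX6 shoot library 2 (adjusted p = 0.0508 to 0.0605).

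Of the other YSL transporters, 0 of 14 tested were called in roots and 1 of 11 rose in shoots. YSL13 (LOC_Os04g44300) had 6.76, 7.46 and 6.88 CPM in OX6 shoots, against 3.08, 5.16 and 1.82 CPM in WT shoots, a 2.06-fold rise (adjusted p = 0.0396) that was lost without WT shoot library 1 or 3 or any 1 OX6 shoot library (0.0606 to 0.143). In roots the most abundant of them per length, YSL6 (LOC_Os04g32050), had 86.2, 82.3 and 91.0 CPM in OX6 and 88.7, 80.6 and 86.1 CPM in WT. The remaining nicotianamine and mugineic acid models gave 0 calls among 5 tested in each organ. Those most abundant per length were a homologue of the barley dioxygenase IDS3 (LOC_Os07g07410), with 82.7, 77.9 and 75.9 CPM in OX6 roots against 78.2, 85.8 and 81.9 CPM in WT roots, and, over both genotypes together, a further aminotransferase (LOC_Os11g42510), with 24.2, 19.1 and 21.1 CPM in OX6 shoots against 22.3, 28.3 and 22.8 CPM in WT shoots.

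The regulator list held a pair of homologues of BRUTUS, a ubiquitin ligase that in Arabidopsis restrains the iron deficiency response. LOC_Os05g47780 had 21.5, 19.2 and 17.5 CPM in OX6 shoots, against 14.0, 14.2 and 13.4 CPM in WT shoots, and rose 1.4-fold (adjusted p = 0.0395). The call was lost with upper-quartile scaling (0.0508) and without WT shoot library 2 or 3 or any 1 OX6 shoot library (0.0594 to 0.205). In roots it had 36.3, 46.4 and 39.2 CPM in OX6, against 43.9, 45.4 and 39.8 CPM in WT, and was not called. The other homologue, LOC_Os01g49470, was not called in either organ. It had 47.1, 56.4 and 50.9 CPM in OX6 shoots, against 61.2, 50.8 and 46.1 CPM in WT shoots, which overlapped. A pair of further regulators was chosen after their values were seen. The homologue of the Arabidopsis regulator FIT (LOC_Os04g31290) had 28.8, 28.9 and 29.8 CPM in OX6 roots, against 28.9, 29.7 and 27.5 CPM in WT roots (adjusted p = 0.926), and IDEF1 (LOC_Os08g01090), a factor that binds iron deficiency elements in rice, had 9.6, 9.76 and 8.59 CPM in OX6 roots, against 10.2, 9.83 and 8.58 CPM in WT roots (adjusted p = 0.949). In OX6 root library 3 the FIT homologue stood at 1.03 of the mean of the other OX6 root libraries. By the same ratio IDEF1 stood at 0.888 and IRO2 at 0.797. The relation of these regulators to the low NAS1, NAS2 and YSL15 values of that library was not tested.

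Of the other storage genes, 0 of 7 tested were called in either organ. Ferritin LOC_Os12g01530 had 713, 793 and 668 CPM in OX6 shoots, against 477, 635 and 560 CPM in WT shoots. It lies in the duplicated ends of chromosomes 11 and 12 and has a near-identical copy, so its counts are uncertain. The copy, LOC_Os11g01530, had 312, 360 and 303 CPM in OX6 shoots, against 277, 265 and 276 CPM in WT shoots. For both copies the OX6 shoot libraries lay above the WT shoot libraries without a call. The vacuolar iron transporter homolog 5 gene (LOC_Os04g59020) had 81.8, 84.4 and 66.1 CPM in OX6 roots, against 55.4, 87.9 and 68.7 CPM in WT roots. For other iron entry and reduction genes 0 of 3 tested were called in either organ. Fe(2+) transport protein 2 (LOC_Os03g46454) had 0.125, 0.337 and 0.289 CPM in OX6 roots, against 0.779, 0.749 and 0.816 CPM in WT roots. All OX6 root libraries were below all WT root libraries without a call, on 5, 15 and 13 counts in OX6 roots. Ferric reduction oxidase 7 (LOC_Os04g36720), a reductase named after a chloroplast enzyme of Arabidopsis, had 73.8, 74.2 and 74.7 CPM in OX6 shoots, against 111, 91.1 and 81.3 CPM in WT shoots. Of the genes for mitochondrial and plastid iron use, 0 of 10 were called in roots and 1 of 10 fell in shoots. A mitoferrin gene (LOC_Os03g18550), a carrier of iron into mitochondria, had 99.6, 79.5 and 85.5 CPM in OX6 shoots, against 127, 112 and 117 CPM in WT shoots, a 1.35-fold fall (adjusted p = 0.0243) that was lost without OX6 shoot library 2 (0.168) or 3 (0.138). Iron-sulfur cluster assembly protein 1 (LOC_Os01g47340) had 97.7, 80.8 and 78.3 CPM in OX6 roots, against 83.6, 92.4 and 87.0 CPM in WT roots.

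The genes most like 4 of the members across all 12 libraries were ranked by Pearson correlation of log2 CPM after subtraction of each organ's mean, given as a description among 29042 genes that share the same libraries and scaling. Most like VIT1.2 were a FAR1-related gene (LOC_Os08g20486, r = 0.935), phytosulfokine 4 (LOC_Os07g03200, 0.934), a precursor of a sulfated growth peptide, and beta-glucosidase 27 (LOC_Os08g39860, 0.928). Most like NAS3 were a pentatricopeptide repeat gene (LOC_Os01g07340, 0.958), GEM-like protein 4 (LOC_Os04g44500, 0.958) and gibberellin 2-beta-dioxygenase 8 (LOC_Os07g01340, 0.948), which inactivates gibberellin. For IRO2 they were a Shewanella-like protein phosphatase (LOC_Os11g15570, 0.965), an N-myristoyltransferase (LOC_Os01g51170, 0.965) and a succinate dehydrogenase assembly factor (LOC_Os11g32480, 0.961), each of which, like IRO2, was highest among the shoot libraries in WT library 1. The same held for NAS3 (102 CPM, against 75.1 and 65.1 CPM in the other WT shoot libraries) and for each of the genes named as most like it. Most like IRT1 were a poly(ADP-ribose) polymerase (LOC_Os02g32860, 0.938), a receptor-like kinase (LOC_Os01g66820, 0.854) and an F-box gene (LOC_Os08g09910, 0.826).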

How the data were processed

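RNA-seq of polyadenylated RNA was read from 1 deposited table of raw counts per gene for 12 libraries. Per the submitters' processing notes, the authors used HISAT2 2.0.5 and featureCounts 1.5.0-p3. Genome build, annotation and strand setting were not given in the sources used here. From these deposited counts, edgeR 4.0.16 (R 4.3.3) quasi-likelihood tests with TMM scaling, robust dispersion and filterByExpr (minimum count 10, minimum total 15) were run on the 6 libraries of each organ. A fit of all 12 libraries tested the difference between organs and root against shoot within each genotype. Adjusted p-values are Benjamini-Hochberg values over all genes tested, called under 0.05, and each SE is the log2 fold change divided by the square root of F. Levels are CPM from the effective library sizes of the fit of all 12 libraries. Ratios of summed counts carry exact 95% intervals for counting error only. Alternatives were DESeq2 1.42.0, limma-voom (limma 3.58.1), other scalings and filters, a replicate block, a shared fit, NAS1 and NAS2 summed, and each library left out. The code was tested on simulated data. Of simulated 1.5-fold changes, 69.2% were recovered in roots and 21.2% in shoots, and of 2-fold changes 91% and 76.6%. A gene not called in shoots may therefore still differ by a moderate amount. The 10 genes and the lists were chosen with earlier results of these data known. Named pathway genes were those called, or, where a list had no call in an organ, its most abundant tested gene per length over both genotypes. Models sharing a member's name in the file, a copy of a named ferritin gene and a homologue of a named BRUTUS gene were named as well. Fe(2+) transport protein 2 was added after its values were seen. Lists were matched by protein name, and models of other function that a keyword caught were dropped by description. Samples were grouped by title. Replicate pairs differed by more than sampling noise (chi-square per gene 5.31 to 28), and the pairs of WT shoot libraries differed most (19.5 to 28).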

Additional observations from a re-analysis of the deposited data

Results flagged for a closer look

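For NAS3, the difference of OX6 from WT was not the same in the organs by a direct test. It was 0.43 on the log2 scale in roots and −0.74 in shoots, and the value in roots minus that in shoots was 1.17 (SE 0.202, edgeR adjusted p = 0.00383). In roots 3 of 3 OX6 libraries were above all WT libraries, and in shoots 3 of 3 were below them. For VIT1.2, the difference was −1.05 in roots and 0.17 in shoots, and the value in roots minus that in shoots was −1.22 (SE 0.187, edgeR adjusted p = 0.00127). In roots 3 of 3 OX6 libraries were below all WT libraries, while the shoot libraries overlapped.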

How the results depend on the processing

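Of 792 alternative values of the fold changes of the 10 genes, 755 kept direction and side of the threshold, 23 changed sign, 10 became called and 4 lost their call. In roots, 1 fit of all 12 libraries called 1 of the 10 genes and 293 genes in all, against 2 and 753, and called 2 and 2459 in shoots, against 1 and 1481. With no filter on low counts 2 of the 10 were called in shoots. DESeq2 called 1207 genes for the difference between organs, against 572. The causes were not tested.

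Leaving out 1 library gave 2 to 3 called of the 10 and 407 to 773 genes in roots, 0 to 2 and 708 to 1877 in shoots, and 2 to 3 and 382 to 701 for the difference between organs. Values near 0 changed sign. In roots, NAS1 was 0.00063 with NAS1 and NAS2 summed and −0.29 to 0.31 with 1 library left out, NAS2 was −0.1 with limma-voom and −0.3 to 0.32 with 1 library left out, and NAAT1 (−0.095 to 0.19), DMAS1 (−0.00046 to 0.28) and IRT1 (−0.45 to 0.27) crossed 0. So did YSL2 in shoots (−0.48 to 0.22), DMAS1 in roots against shoots of OX6 (−0.0054 to 0.27) and IRO2 in roots against shoots of WT (−0.2 to 2.08, called at adjusted p = 0.012 without WT shoot library 1 and with limma-voom at 2.22, adjusted p = 0.0134). For the difference between organs, NAS1 was −0.44 with the pair summed and −1.63 to 2.65 with 1 library left out, and YSL2 −0.44 to 0.56. IRT1 in roots against shoots of OX6 was called with DESeq2 (−1.01, adjusted p = 0.0434) and limma-voom (−1.04, adjusted p = 0.0391), and without OX6 root library 3 (−1.41, adjusted p = 0.0274), WT shoot library 1 (−1, adjusted p = 0.0476) or OX6 shoot library 3 (−1.23, adjusted p = 0.0337).

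Same-numbered OX6 and WT libraries of an organ did not deviate together (correlations −0.0594 to 0.0509 in roots, −0.0241 to 0.0238 in shoots). Root and shoot libraries of the same number were not compared in this way. The labels do not state whether they share plants, and all tests without the replicate block treated the libraries as unpaired. With a replicate block, 796 genes were called in roots, 1454 in shoots and 471 for the difference between organs. The counts among the 10 genes were then 2, 1 and 2. NAS2 in roots was −0.071, and the BRUTUS homologue LOC_Os05g47780 in shoots had an edgeR adjusted p of 0.0563. Low counts limit IRT1 and YSL2 throughout, and NAS1, NAS2, YSL15 and IRO2 in shoots.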
